A study of Mus musculus with 12 samples.

Results

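Interferon-induced genes were followed across 12 RNA sequencing libraries of mouse primary tubular epithelial cells. The set holds 42 genes, chosen by name as genes that interferons are known to switch on, out of 44792 in the count table. All 42 were found in the table and all 42 passed the filter on low counts. The cells came from the kidney cortex of C57BL/6 mice, with 3 mice for each of 4 genotypes. MYC-OE SETD2-KO mice were labelled Ksp1.3/cre with MYCfl/fl and Setd2fl/fl, MYC-OE mice Ksp1.3/cre with MYCfl/fl, SETD2-KO mice Ksp1.3/cre with Setd2fl/fl, and WT mice Setd2fl/fl with no Cre. Ksp-cadherin is a cadherin of the renal tubule, and its promoter drives Cre in tubular epithelium. Setd2 encodes a histone H3 methyltransferase that marks the bodies of transcribed genes, and MYC is a growth-promoting transcription factor. MYC-OE is the group whose label holds no floxed Setd2 allele. In any comparison with it, a difference in that allele or in the line of mice cannot be told apart from the named genotype. The labels gave no age.

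Interferons are secreted proteins that signal through cell surface receptors and the JAK kinases to STAT transcription factors. Type I and III interferons act mainly through a complex that holds STAT2 and IRF9 and binds the interferon-stimulated response element (ISRE), and interferon gamma acts mainly at the gamma-activated site (GAS). The induced genes encode antiviral effectors, sensors of foreign nucleic acid, the transcription factors of the pathway itself, regulators, and large GTPases that act on membranes around intracellular pathogens.

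Read totals ranged from 8889185 to 14314434 in MYC-OE SETD2-KO, 15712963 to 17132375 in MYC-OE, 16657538 to 41608501 in SETD2-KO and 22997852 to 44227191 in WT. The 42 genes took between 0.063% and 0.123% of the counts of a library. Mitochondrial ribosomal RNA split the libraries into 3 sets: over 10000 CPM (CPM is a gene's count per unit of library size, with TMM-scaled sizes for the members' levels) in WT 1, 2 and 3 and SETD2-KO 1 and 2 (set 1), under 100 CPM in MYC-OE SETD2-KO 3, MYC-OE 2 and 3 and SETD2-KO 3 (set 3), and between in MYC-OE SETD2-KO 1 and 2 and MYC-OE 1 (set 2). No set holds both MYC-OE and WT libraries. By the counts of Xist against Ddx3y, SETD2-KO 3 and MYC-OE SETD2-KO 1 and 3 read as female and the other libraries as male. Sex was thus uneven between MYC-OE SETD2-KO and MYC-OE, and all MYC-OE and WT libraries read as male. The summed level of 10 proximal tubule markers was 1384 to 18382 CPM in MYC-OE SETD2-KO, 2573 to 14489 CPM in MYC-OE, 11235 to 25200 CPM in SETD2-KO and 21333 to 23848 CPM in WT. Setd2 itself stood at 51.1 to 80.6 CPM in MYC-OE SETD2-KO, 56.8 to 62.1 CPM in MYC-OE, 58.9 to 79.0 CPM in SETD2-KO and 70.9 to 86.4 CPM in WT, and was not called in SETD2-KO against WT (log2 fold change -0.24 ± 0.19, SE, edgeR adjusted p = 1). Mouse Myc was not called in MYC-OE against WT either (0.32 ± 0.52, edgeR adjusted p = 0.669). Whole-gene counts therefore did not check the genotype labels.

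Gbp2b and Ifi44l were nearly absent from the MYC-OE libraries and present in all 9 others. Gbp2b encodes a guanylate-binding protein, one of the interferon-induced large GTPases, and Ifi44l encodes an interferon-induced protein with antiviral activity. Gbp2b had 14.4, 11.6 and 9.06 CPM in MYC-OE SETD2-KO, 0.422, 0.220 and 0.157 CPM in MYC-OE, 6.24, 17.4 and 10.8 CPM in SETD2-KO, and 7.78, 9.06 and 18.3 CPM in WT. The highest MYC-OE library lay far below the lowest library of any other group, and the other 3 groups overlapped each other. The raw counts behind the MYC-OE values were 8, 5 and 4.

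Ifi44l had 9.47, 4.42 and 6.87 CPM in MYC-OE SETD2-KO, 0.0528, 0 and 0.0393 CPM in MYC-OE, 5.32, 4.65 and 3.11 CPM in SETD2-KO, and 3.40, 4.48 and 2.65 CPM in WT. The MYC-OE values rest on 1, 0 and 1 counts. The other 3 groups again overlapped each other. In bulk libraries, fewer cells that express a gene and less RNA per cell cannot be told apart.

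**Figure D1:**
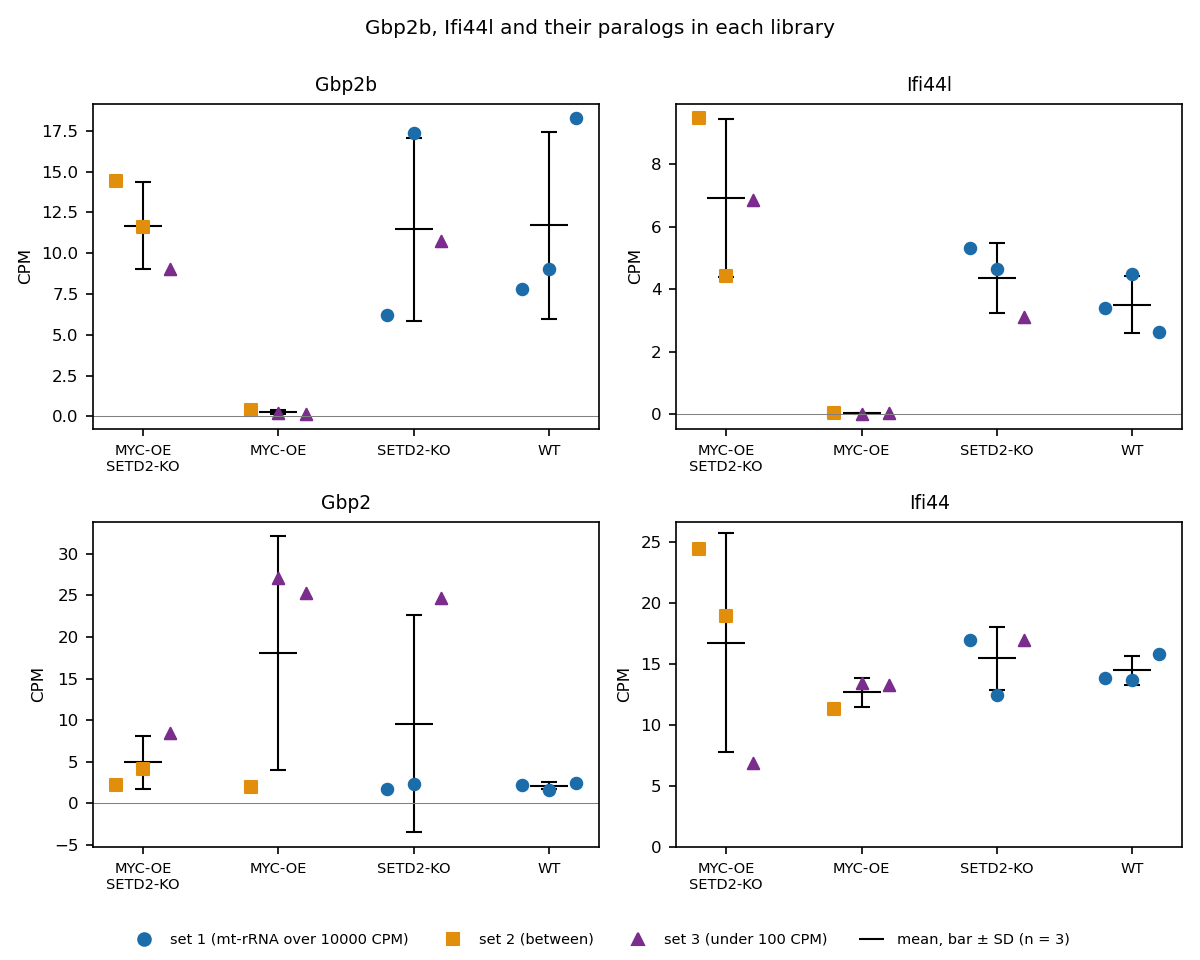
Levels of Gbp2b, Ifi44l and the paralogs Gbp2 and Ifi44 in CPM (vertical axes) in each library, by genotype; horizontal marks are means and bars ± SD over 3 libraries, and colours give the mitochondrial ribosomal RNA sets. MYC-OE libraries lie at 0.422 CPM or below for Gbp2b and 0.0528 CPM or below for Ifi44l, while every MYC-OE library has at least 1.8999 CPM of Gbp2 and 11.3 CPM of Ifi44.

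Gbp2b averaged 11.7 ± 2.68 CPM in MYC-OE SETD2-KO, 0.267 ± 0.138 CPM in MYC-OE, 11.5 ± 5.60 CPM in SETD2-KO and 11.7 ± 5.71 CPM in WT (SD, n = 3 each). It fell in MYC-OE against WT, with a log2 fold change of -5.45 ± 0.59 (SE; edgeR quasi-likelihood test, Benjamini-Hochberg adjusted p = 0.0135). Pooled over libraries, 17 counts in MYC-OE stood against 1006 in WT. Scaled by read totals, without the TMM scaling used for the fold change, this was a ratio of 0.0338. Its exact 95% interval, for counting error alone, was 0.0196 to 0.0543. It rose in MYC-OE SETD2-KO against MYC-OE by 5.45 ± 0.59 (edgeR adjusted p = 0.00913). The difference was 0.03 ± 0.48 in MYC-OE SETD2-KO against SETD2-KO (edgeR adjusted p = 0.99) and -0.03 ± 0.48 in SETD2-KO against WT (edgeR adjusted p = 1). Leaving out MYC-OE 2 or MYC-OE 3 ended both calls of Gbp2b (edgeR adjusted p up to 0.116), while the log2 fold change in MYC-OE against WT stayed between -5.90 and -4.75 over 15 alternatives. The call in MYC-OE SETD2-KO against MYC-OE was also lost with limma-voom.

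Ifi44l averaged 6.92 ± 2.52 CPM in MYC-OE SETD2-KO, 0.0307 ± 0.0274 CPM in MYC-OE, 4.36 ± 1.13 CPM in SETD2-KO and 3.51 ± 0.918 CPM in WT (SD, n = 3 each). It fell in MYC-OE against WT (log2 fold change -6.62 ± 0.67, edgeR adjusted p = 0.012) and rose in MYC-OE SETD2-KO against MYC-OE (7.60 ± 0.69, edgeR adjusted p = 0.00373). Fitted fold changes at so few counts depend on the prior count. The pooled ratio, also scaled by read totals alone, rests on 2 counts in MYC-OE against 262 in WT. It was 0.0153 (exact 95% interval 0.00184 to 0.0556). The call against WT was lost without MYC-OE 3 (edgeR adjusted p up to 0.116 over the alternatives). Ifi44l differed by 0.66 ± 0.48 in MYC-OE SETD2-KO against SETD2-KO (edgeR adjusted p = 0.677) and by 0.32 ± 0.47 in SETD2-KO against WT (edgeR adjusted p = 1).

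The interaction asks whether the Setd2 difference depends on the MYC construct. It was called for Ifi44l (7.28 ± 0.82, edgeR adjusted p = 0.0309) and not for Gbp2b (5.48 ± 0.74, edgeR adjusted p = 0.105), where 0.0118% of all 17019 tested genes were called (0.00588% positive and 0.00588% negative). The Ifi44l call was made in 10 of 21 alternatives. It was lost without any 1 WT library, any 1 SETD2-KO library, MYC-OE 3 or MYC-OE SETD2-KO 1 (edgeR adjusted p of 0.0718 to 0.224), and with total counts, limma-voom and the replicate block. Within single sets, MYC-OE SETD2-KO exceeded MYC-OE in mean log2 CPM by 4.67 (Gbp2b) and 5.51 (Ifi44l) in set 2, and by 5.04 and 5.99 in set 3. The median difference of the other 40 members was 0.55 in set 2 and -1.10 in set 3. These are 2 libraries against 1 and 1 against 2, with no test.

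Over all 17019 tested genes, 2 (0.0118%) had their highest MYC-OE library under 0.1 times the lowest of the other 9, and these were Gbp2b and Ifi44l. The opposite pattern, the lowest MYC-OE library over 10 times the highest other, was held by 4 genes (0.0235%). The rule was chosen after the values were seen. Both lie on chromosome 3, with Gbp2b at chr3:142594847-142619179 on the plus strand and Ifi44l at chr3:151758737-151762891 on the minus strand (GRCm38, as the table gives them), 9.16 Mb apart. Each was the gene whose log2 CPM followed the other most closely over the 12 libraries (Pearson r = 0.954, a description over libraries that share their groups). Next for Gbp2b came Gm5900 (0.947), Appl2 (0.944), Mapk1ip1 (0.943) and Zfp871 (0.934), and for Ifi44l Appl2 (0.942), E230016M11Rik (0.932), LOC102631905 (0.931) and Errfi1 (0.924).

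The nearest paralogs, Gbp2 and Ifi44, were counted in every MYC-OE library. Gbp2, which shares 82.5% of the 1767 coding bases of Gbp2b, had 2.20, 4.17 and 8.40 CPM in MYC-OE SETD2-KO, 1.8999, 27.1 and 25.2 CPM in MYC-OE, 1.73, 2.35 and 24.7 CPM in SETD2-KO, and 2.19, 1.64 and 2.45 CPM in WT. Its high libraries were MYC-OE 2 and 3 and SETD2-KO 3, all of set 3, and it was not called in MYC-OE against WT (log2 fold change 3.11 ± 1.16, edgeR adjusted p = 0.0961). Of the 50-base windows of the Gbp2b transcript 1.84% occur in another gene. Among more distant paralogs, Gbp11 did not pass the filter on low counts and had 0, 0 and 2 counts in MYC-OE. Gbp11 had 3, 4 and 3 counts in MYC-OE SETD2-KO, 28, 9 and 11 in SETD2-KO, and 10, 11 and 12 in WT. In MYC-OE against WT, Gbp10 gave a log2 fold change of -2.15 (edgeR adjusted p = 0.115), Gbp4 -0.62 (0.391), Gbp9 0.14 (0.792) and Gbp8 1.31 (0.14). Gbp10 had 2.75, 2.65 and 0.0549 CPM in MYC-OE SETD2-KO and 0.739, 0.793 and 0.550 CPM in MYC-OE. It had 3.77, 3.60 and 7.05 CPM in SETD2-KO and 3.17, 3.06 and 3.08 CPM in WT. Its MYC-OE libraries thus lay below all others except MYC-OE SETD2-KO 3.

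Ifi44, with 68.7% identity to Ifi44l over 438 aligned coding bases, had 24.4, 18.9 and 6.87 CPM in MYC-OE SETD2-KO, 11.3, 13.5 and 13.3 CPM in MYC-OE, 16.95, 12.4 and 16.99 CPM in SETD2-KO, and 13.9, 13.7 and 15.8 CPM in WT. MYC-OE lay just below WT without overlap, and Ifi44 was not called (-0.19 ± 0.38, edgeR adjusted p = 0.732). No 50-base window of Ifi44l or Ifi44 occurred in another gene.

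The promoters of both pairs are shown to set the 2 nearly absent genes beside their paralogs (RefSeq, GRCm38.p6, 250 bases before to 50 after the start). Capitals mark matches to the ISRE, written as GAAA, any 2 bases and GAAA, searched on both strands. The GAS letters TTCNNNGAA were searched too and matched none of the 4. The windows are chr3:142594597-142594896 (plus), chr3:142620413-142620712 (plus), chr3:151762842-151763141 (minus) and chr3:151749861-151750160 (minus).
Gbp2b: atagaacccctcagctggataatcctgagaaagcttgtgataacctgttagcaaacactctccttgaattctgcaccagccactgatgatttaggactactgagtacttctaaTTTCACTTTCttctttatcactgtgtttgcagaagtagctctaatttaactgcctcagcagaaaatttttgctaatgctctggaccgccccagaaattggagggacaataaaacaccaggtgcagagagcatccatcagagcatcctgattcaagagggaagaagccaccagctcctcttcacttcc
Gbp2: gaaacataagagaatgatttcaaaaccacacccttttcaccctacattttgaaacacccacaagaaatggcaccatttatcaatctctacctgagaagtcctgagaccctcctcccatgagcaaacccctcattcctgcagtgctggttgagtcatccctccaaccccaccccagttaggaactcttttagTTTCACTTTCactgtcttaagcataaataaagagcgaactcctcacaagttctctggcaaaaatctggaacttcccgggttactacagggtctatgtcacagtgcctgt
Ifi44l: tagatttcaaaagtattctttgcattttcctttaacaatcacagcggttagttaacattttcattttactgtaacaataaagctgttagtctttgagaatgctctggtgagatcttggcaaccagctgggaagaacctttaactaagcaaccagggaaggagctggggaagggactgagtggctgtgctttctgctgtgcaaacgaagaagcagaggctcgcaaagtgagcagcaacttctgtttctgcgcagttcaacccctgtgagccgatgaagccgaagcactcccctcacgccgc
Ifi44: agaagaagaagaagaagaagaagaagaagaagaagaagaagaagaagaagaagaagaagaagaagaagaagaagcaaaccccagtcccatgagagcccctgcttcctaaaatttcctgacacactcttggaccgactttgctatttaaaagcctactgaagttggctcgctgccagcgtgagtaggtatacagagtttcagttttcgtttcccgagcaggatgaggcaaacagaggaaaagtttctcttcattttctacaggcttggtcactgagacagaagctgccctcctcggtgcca
Gbp2b and Gbp2 hold the same 10 letters, TTTCACTTTC, which are the ISRE on the opposite strand, starting 137 bases before the Gbp2b start and 59 before that of Gbp2. Neither the Ifi44l nor the Ifi44 window holds a match. The ISRE letters were found in 3.44% of 32851 promoters and in 19 of the 32 members with a promoter in the table. The GAS letters were found in 8.3% and in 11 of 32. A member counted if any of its promoters matched, so its share and that of single promoters are in unlike units. A match describes letters only.

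Neighbouring genes were tested for the same change. Of 14 tested genes within 2 Mb of Gbp2b, 1 was called in MYC-OE against WT, where 7.99% of all tested genes were. This was Bmpr1b, a receptor of bone morphogenetic proteins, which rose (log2 fold change 2.07, edgeR adjusted p = 0.0407, beside 5.62% of all). Of 15 within 2 Mb of Ifi44l, 1 was called, Dnajb4, a co-chaperone, which fell (-0.86, edgeR adjusted p = 0.0444, beside 2.36% of all). The smallest edgeR adjusted p among these neighbours in MYC-OE SETD2-KO against MYC-OE was 0.123. The guanylate-binding protein genes beside Gbp2b gave log2 fold changes of 3.11 (Gbp2), 0.85 (Gbp5), -0.44 (Gbp7) and 0.45 (Gbp3) in MYC-OE against WT, with edgeR adjusted p of 0.0961 to 0.649.

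**Figure D2:**
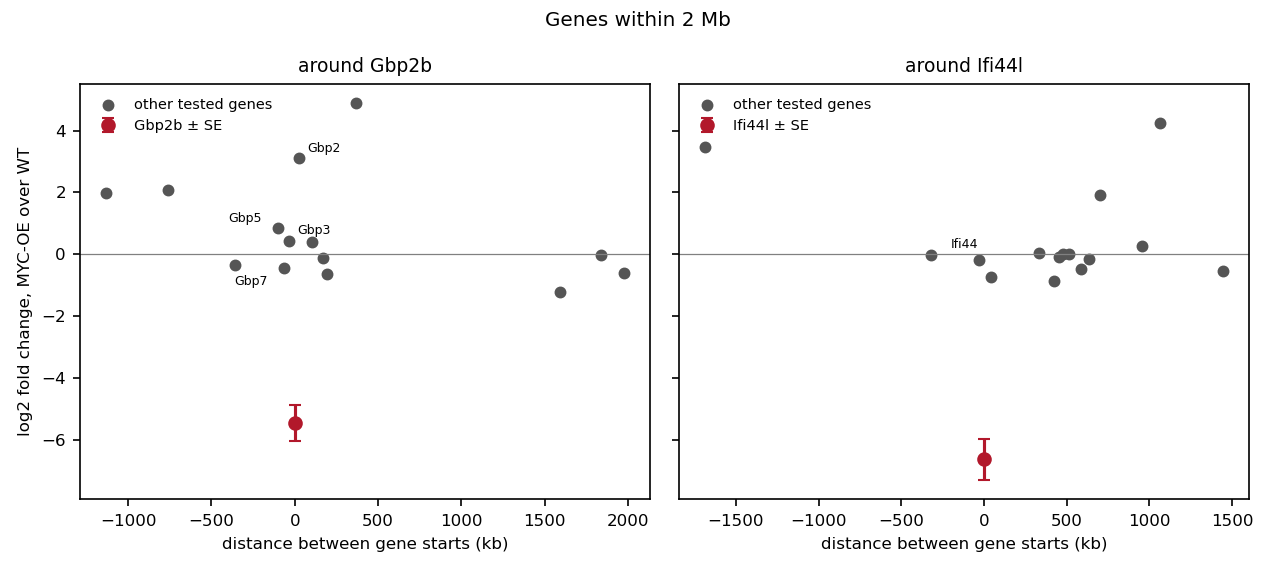
Log2 fold change in MYC-OE over WT (vertical axis) of tested genes within 2 Mb of Gbp2b and of Ifi44l, against the distance between gene starts in kb. Gbp2b at -5.45 and Ifi44l at -6.62 (red, ± SE) lie below every neighbour, the lowest of which are at -1.20 and -0.86.

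Counted over all 42 genes, few were called. In MYC-OE against WT 3 were called (7.99% of all tested genes were): 1 rose (Mx1, beside 5.62% of all tested genes) and 2 fell (Gbp2b and Ifi44l, beside 2.36%). The members called in MYC-OE SETD2-KO against MYC-OE (0.176% of all tested genes) were the same 2, and both rose (beside 0.0529% of all). EdgeR called 0 members in MYC-OE SETD2-KO against SETD2-KO (0% of all tested genes). There 1 member had an unadjusted p under 0.05, and DESeq2 and limma-voom each called 0. A term for the sets changed this: some members were called (8.85% of all tested genes were), and 8 had an unadjusted p under 0.05. EdgeR also called 0 in SETD2-KO against WT (0%), where 0 members had an unadjusted p under 0.05 and DESeq2 and limma-voom each called 0. The comparisons share groups, so their values are not independent.

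**Figure D3:**
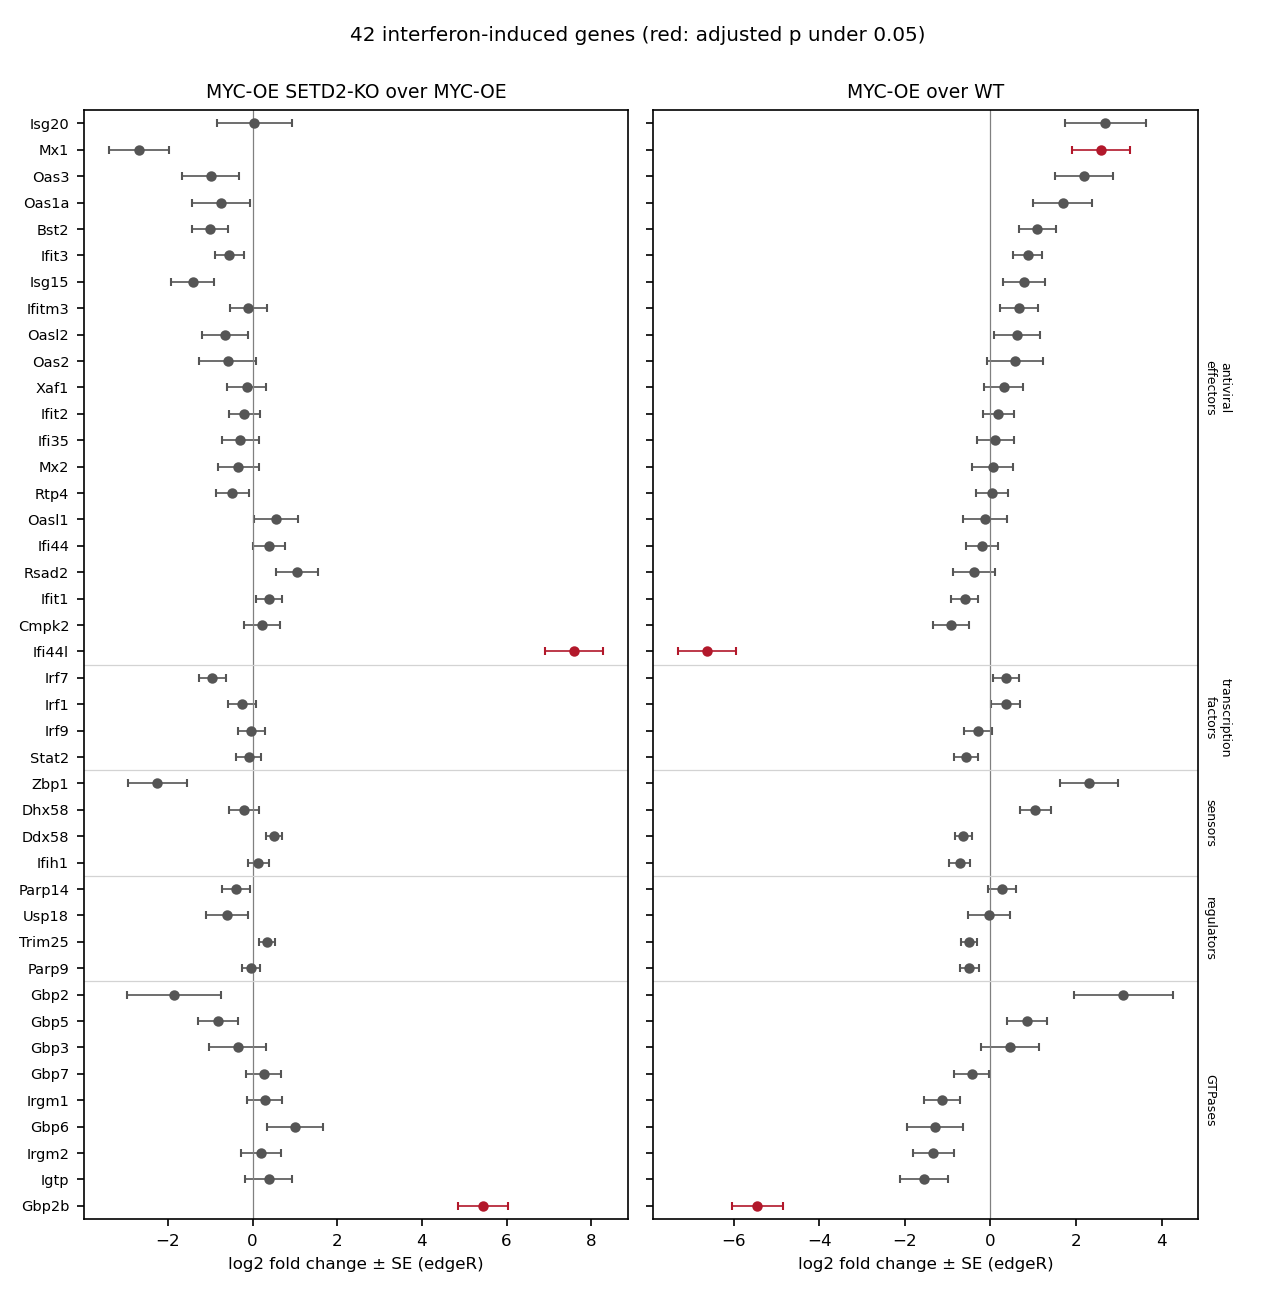
Log2 fold changes ± SE (edgeR, horizontal axes) of the 42 genes by role, in MYC-OE SETD2-KO over MYC-OE (left) and MYC-OE over WT (right); red marks an adjusted p under 0.05. Gbp2b and Ifi44l stand apart in both, at 5.45 and 7.60 on the left and -5.45 and -6.62 on the right, and the other 40 lie between -2.69 and 1.05 on the left and -1.55 and 3.11 on the right.

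Without Gbp2b and Ifi44l, the remaining 40 members had a median log2 fold change of 0.15 in MYC-OE against WT, beside -0.01 over all tested genes, with 23 above 0 and 17 below. Their median was -0.20 in MYC-OE SETD2-KO against MYC-OE, beside 0.05 over all tested genes. Both medians turned without the libraries of set 3, to -0.34 in MYC-OE against WT and 0.54 in MYC-OE SETD2-KO against MYC-OE, and that in MYC-OE against WT was -0.13 with a term for the sets. MYC-OE and WT libraries did not overlap for 20 of the 42 (50.6% of all tested genes), of which 6 were higher in MYC-OE (25.5% of all) and 14 lower (25% of all). MYC-OE SETD2-KO and MYC-OE did not overlap for 8 (12.5%), with 3 higher (5.86%) and 5 lower (6.66%). MYC-OE SETD2-KO and SETD2-KO did not overlap for 2 (9.97%), Dhx58 higher (5.56%) and Cmpk2 lower (4.41%). SETD2-KO and WT did not overlap for 2 (6.75%), Ifih1 and Parp9, both lower (3.53%), and 0 were higher (3.22%).

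Among 21 antiviral effectors, 1 rose (beside 5.62% of all tested genes) and 1 fell (beside 2.36%) in MYC-OE against WT. Mx1, a dynamin-like GTPase that blocks influenza viruses, had 0.880, 0.505 and 0.165 CPM in MYC-OE SETD2-KO, 1.003, 3.70 and 5.03 CPM in MYC-OE, 0.740, 0.523 and 0.983 CPM in SETD2-KO, and 0.508, 0.546 and 0.570 CPM in WT. All 3 MYC-OE libraries lay above all others, most of all MYC-OE 2 and 3. Mx1 rose in MYC-OE against WT (log2 fold change 2.57 ± 0.68, edgeR adjusted p = 0.0482), a call made in 5 of 15 alternatives. It was lost without the libraries of set 3, and without any 1 WT library, MYC-OE 2 or MYC-OE 3 (edgeR adjusted p of 0.131 to 0.164 in these last). It was also lost with no filter on low counts, limma-voom, the set term and the replicate block. Its log2 fold change was 0.92 without set 3 and 0.92 to 3.42 over the alternatives. It gave -2.69 ± 0.71 in MYC-OE SETD2-KO against MYC-OE (edgeR adjusted p = 0.165).

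Isg20, an exonuclease that degrades RNA, had 1.76, 1.77 and 16.3 CPM in MYC-OE SETD2-KO, 1.85, 9.12 and 8.40 CPM in MYC-OE, 1.16, 0.959 and 2.62 CPM in SETD2-KO, and 0.821, 0.710 and 1.45 CPM in WT. The set 3 libraries were the highest of their groups. Averaged over the Setd2 genotypes, the 6 MYC construct libraries against the 6 without it gave 4 called members (11.7% of all tested genes were called, 7.93% as higher and 3.77% as lower): Isg20 rose (2.38 ± 0.67, edgeR adjusted p = 0.0463), Dhx58 rose (0.92 ± 0.26, edgeR adjusted p = 0.0459), and Gbp2b (-2.71 ± 0.37) and Ifi44l (-2.98 ± 0.40) fell, both at an edgeR adjusted p of 0.0232. Without the libraries of set 3, neither Isg20 (0.82) nor Dhx58 (0.48) was called, and Isg20 was at 1.42 without MYC-OE SETD2-KO 3. The Isg20 call was made in 9 of 20 alternatives and was also lost with limma-voom and a term for sex. That of Dhx58 was made in 5 of 21. It was also lost with no filter on low counts, limma-voom, the set term, a term for sex and the replicate block. All 4 calls were lost when any 1 WT library, SETD2-KO 2, MYC-OE 2 or MYC-OE 3 was left out (edgeR adjusted p of 0.0589 to 0.122). Leaving out SETD2-KO 1 also ended those of Ifi44l, Isg20 and Dhx58, MYC-OE SETD2-KO 3 those of Isg20 and Dhx58, and SETD2-KO 3 or MYC-OE SETD2-KO 1 that of Dhx58.

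Other effectors that did not pass the test in MYC-OE against WT included Oas3, which makes the activator of RNase L (log2 fold change 2.19, edgeR adjusted p = 0.0658), Bst2, which tethers budding virions (1.09, 0.108), Isg15, a ubiquitin-like modifier (0.78, 0.263), and Rsad2, a radical enzyme known as viperin (-0.40, 0.572). Of the 50-base windows of Ifit3 51.2%, of Oas1a 57.6% and of Gbp6 90.2% occur in other genes, so their counts are uncertain. The share was 12.3% for Igtp, in Irgm2, and 8.1% for Irgm2. Igtp, Irgm2 and Trim25 were counted on scaffolds apart from the main sequence of chromosome 11, where RefSeq places them. Ifit1, Dhx58, Gbp2 and Parp9 overlap a gene on the opposite strand, and whether the counts used strand was not stated.

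The 4 transcription factors of the pathway had edgeR adjusted p of 0.174 to 0.515 in MYC-OE against WT. Irf7, which amplifies type I interferon, gave a log2 fold change of 0.36, Irf1 0.35, and Irf9 and Stat2, the partners that bind the ISRE, -0.29 and -0.57. Among sensors, Dhx58, a relative of RIG-I, had 4.40, 3.41 and 4.45 CPM in MYC-OE SETD2-KO, 2.80, 4.80 and 6.56 CPM in MYC-OE, 2.89, 2.15 and 2.02 CPM in SETD2-KO, and 2.46, 1.86 and 2.54 CPM in WT. Both groups with the MYC construct lay above WT, and MYC-OE SETD2-KO above SETD2-KO. Zbp1, a sensor of Z-form nucleic acid, gave 2.30 ± 0.69 in MYC-OE against WT (edgeR adjusted p = 0.0601). Ddx58 (RIG-I) gave -0.64 and Ifih1 (MDA5) -0.72, neither called. The 4 regulators had edgeR adjusted p of 0.0948 to 0.966 and log2 fold changes of -0.50 (Parp9) to 0.26 (Parp14).

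The immunity-related GTPases Igtp, Irgm1 and Irgm2, which act at pathogen vacuoles, did not pass the test. They were lower in every MYC-OE library than in any WT library, as were 25% of all tested genes. Igtp had 23.9, 32.4 and 4.61 CPM in MYC-OE SETD2-KO, 13.6, 17.9 and 15.2 CPM in MYC-OE, 26.1, 35.9 and 63.5 CPM in SETD2-KO, and 48.8, 47.2 and 41.5 CPM in WT. MYC-OE against WT gave -1.55 ± 0.57 (edgeR adjusted p = 0.091), and Irgm2 -1.33 (0.0897) and Irgm1 -1.14 (0.0919). Without the libraries of set 3, these 3 were called as lower, among 11 members that were (16.3% of all tested genes were called, 6.2% as lower), but that leaves 1 MYC-OE library, assumed to vary like the other groups.

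**Figure D4:**
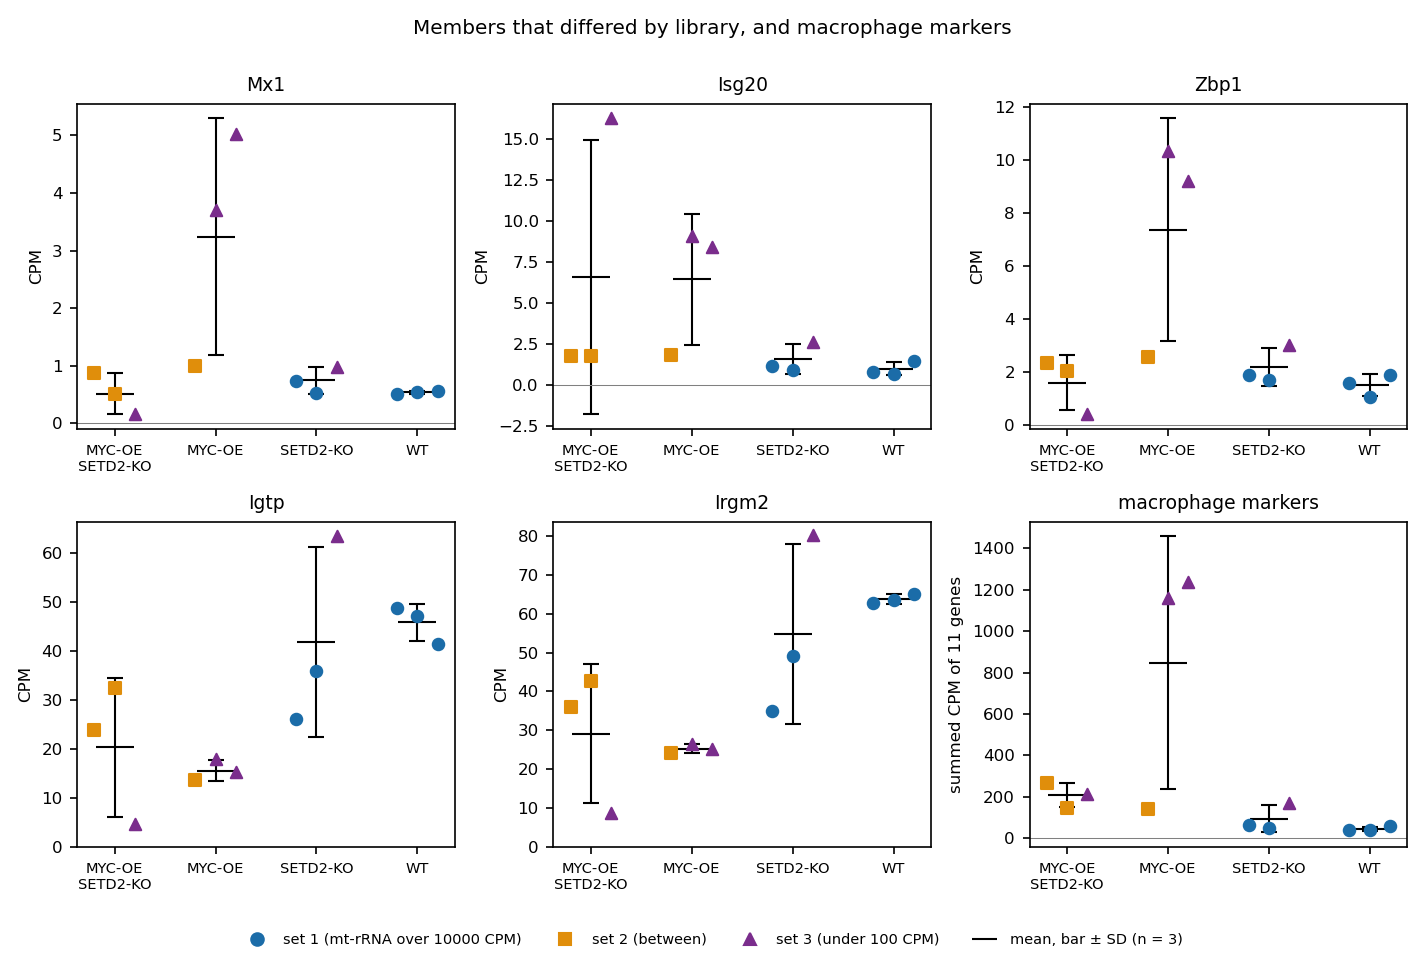
Levels of Mx1, Isg20, Zbp1, Igtp and Irgm2 in CPM and the summed CPM of 11 macrophage markers, by library and genotype, with means ± SD over 3 libraries and colours for the mitochondrial ribosomal RNA sets. MYC-OE 2 and 3 are high for Mx1, Isg20, Zbp1 and the macrophage markers.

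Library sets moved with many of the 40 other members. In MYC-OE, set 3 exceeded the set 2 library by a median of 0.98 log2 CPM, with 34 of 40 higher. In SETD2-KO the set 3 library exceeded the others by 0.46, with 28 higher. In MYC-OE SETD2-KO the set 3 library lay 0.77 below the others (median difference -0.77), with 30 lower. Markers of macrophages, which respond strongly to interferons, summed to 148 to 265 CPM in MYC-OE SETD2-KO, 142 to 1236 CPM in MYC-OE, 51.1 to 171 CPM in SETD2-KO and 37.6 to 57.5 CPM in WT. These sums are over 11 of 12 listed genes found, 7 of which rose in MYC-OE against WT (beside 5.62% of all tested genes). No marker was at 0 in all libraries. Of the tested markers of other cell types, 3 of 5 for B and plasma cells, 3 of 5 for dendritic cells and 3 of 8 for T and NK cells also rose in MYC-OE against WT. The counts were 3 of 9 for fibroblasts and mural cells, 1 of 9 for endothelium, 1 of 5 for intercalated cells and 0 of 4 for neutrophils. They were 0 for podocytes, proximal tubule, thick ascending limb, distal convoluted tubule and principal cells. Neutrophil markers summed to 47.4 to 66.5 CPM in MYC-OE SETD2-KO, 1.53 to 26.6 CPM in MYC-OE, 4.33 to 33.5 CPM in SETD2-KO and 1.41 to 4.53 CPM in WT. B and plasma cell markers summed to 4.95 to 11.1 CPM in MYC-OE SETD2-KO, 5.75 to 105 CPM in MYC-OE, 2.29 to 3.11 CPM in SETD2-KO and 2.46 to 3.85 CPM in WT, and fibroblast and mural markers to 112 to 484 CPM in MYC-OE SETD2-KO, 244 to 1027 CPM in MYC-OE, 122 to 275 CPM in SETD2-KO and 105 to 131 CPM in WT. By library, the macrophage sums were 265, 148 and 214 CPM in MYC-OE SETD2-KO and 142, 1163 and 1236 CPM in MYC-OE. They were 62.6, 51.1 and 171 CPM in SETD2-KO and 39.0, 37.6 and 57.5 CPM in WT. Single macrophage markers differed. In MYC-OE SETD2-KO 3, Csf1r (18.7 CPM) was the highest of its group and Cx3cr1 (0.220 CPM) the lowest. The part of these in the members' values was not tested.

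**Figure D5:**
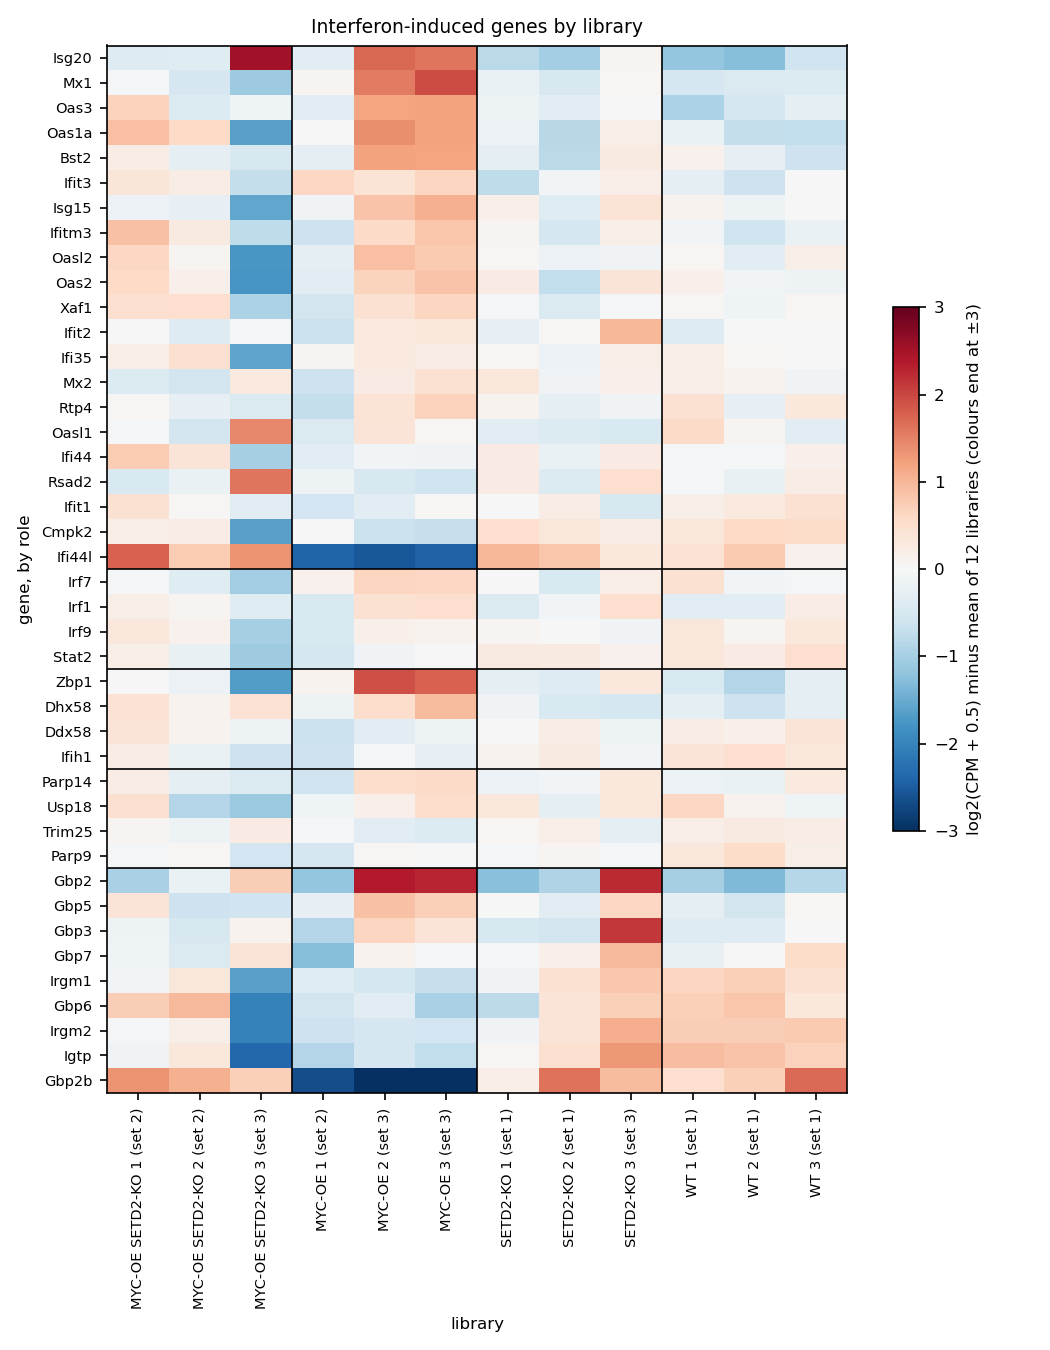
Log2(CPM + 0.5) of the 42 genes minus each gene's mean over 12 libraries (colour, ending at ±3), with genes by role and libraries by genotype. Gbp2b and Ifi44l are low in all 3 MYC-OE libraries, and Gbp2 is high in MYC-OE 2 and 3 and SETD2-KO 3.

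Upstream, 0 of 19 interferon genes in the table passed the filter on low counts, and the highest count of any in 1 library was 5 (Ifne in MYC-OE 2). The whole pathway list, with the interferon genes included, held 72 genes, of which 67 were in the table and 46 were tested. In MYC-OE against WT 4 rose (beside 5.62% of all tested genes), the adaptor Tmem173 (STING, log2 fold change 3.13, edgeR adjusted p = 0.0407), the DNA sensor Tlr9 (3.57, 0.0447), the transcription factor Irf5 (1.34, 0.0421) and Ifi204 (1.98, 0.0492), and 1, the kinase Tbk1, fell (-0.63, 0.0488; beside 2.36%). Counts in MYC-OE 1, 2 and 3 were 85, 605 and 813 for Tmem173, 16, 117 and 114 for Tlr9, and 72, 276 and 330 for Ifi204. Irf5 was more even, at 371, 417 and 383. Leaving out any 1 WT library, MYC-OE 2 or MYC-OE 3 left 0.00577% to 0.0168% of all tested genes called in MYC-OE against WT. The calls of these pathway genes were not followed there. Irf5 fell in MYC-OE SETD2-KO against MYC-OE (-1.90, edgeR adjusted p = 0.0477), beside 0.123% of all tested genes.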

How the data were processed

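RNA sequencing counts of 12 libraries were used, 3 for each genotype by the titles. The authors deposited raw counts, 1 whole number for each gene and library, per the file headers. Tools named by the submitters' processing notes are HISAT2, StringTie, FastQC, MACS2 2.1.1, Trimmomatic 0.35 and cutadapt 1.9.1, and GRCm38 and mm10 are their builds. The counting program and its strand setting were not given in the sources used here. Poly(A) RNA and a directional kit were used, per the labels' protocols.

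Counts were tested with edgeR 4.0.16 in R 4.3.3 (TMM, filterByExpr, quasi-likelihood test, 1 fit over all libraries, 8 residual degrees of freedom, Benjamini-Hochberg over 17019 genes, called at an adjusted p under 0.05). SEs were derived from the fold change and its F value. Log2 CPM for correlations and differences within sets used a prior count of 2. DESeq2 1.42.0 and limma 3.58.1 were alternatives. The scripts were tested on simulated data. No pair of libraries within a group agreed within sampling noise: the smallest median chi-square was 1.85 (MYC-OE 2 and 3), where sampling alone gives 0.455. Paralogs were ranked by coding sequence identity in GENCODE, since no protein table was used here. The members, gene lists and library sets were chosen with earlier results of these data known. Every member could be named, and other genes by closeness in correlation, position or a call.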

Additional observations from a re-analysis of the deposited data

Results flagged for a closer look

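Ifi44l stood out because the difference between Setd2 genotypes was not the same with and without the MYC construct. The MYC-OE label holds no floxed Setd2 allele, so a difference in that allele or in the line of mice cannot be told apart from the named genotypes. The interaction was 7.28 ± 0.82 on the log2 scale (SE, edgeR adjusted p = 0.0309). MYC-OE SETD2-KO exceeded MYC-OE in all 3 of its libraries, while SETD2-KO and WT libraries overlapped. The value rests on 2 counts in the 3 MYC-OE libraries. The call was lost without any 1 WT or SETD2-KO library, without MYC-OE 3 and without MYC-OE SETD2-KO 1 (edgeR adjusted p of 0.0718 to 0.224), and with total counts, limma-voom and the replicate block.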

How the results depend on the processing

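The count of called members in MYC-OE against WT was 15 with total counts as library sizes (29.7% of all tested genes were called), 15 with DESeq2 (26.4%), 6 with a term for sex (22.1%) and 11 without the libraries of set 3 (16.3%), and ranged from 0 to 10 when each replicate was left out (0.00577% to 24.8%). In MYC-OE SETD2-KO against MYC-OE it was 4 with DESeq2 (4.49%), 1 with limma-voom (0.0353%) and 1 to 3 without each replicate (0.0172% to 3.26%). In MYC-OE SETD2-KO against SETD2-KO it was 5 with a term for the sets (8.85%). For the interaction it was 0 with total counts (0.00588%), 2 with DESeq2 (1.57%), 0 with limma-voom (0.00588%), 2 with the set term (0.106%), 0 with the replicate block (0.00588%) and 0 to 2 without each replicate (0% to 0.175%). Averaged over Setd2 genotypes it was 7 with total counts (24%), 8 with DESeq2 (23.6%), 8 with the set term (7.23%), 2 with the sex term (6.44%), 9 without set 3 (19.5%) and 0 to 7 without each replicate (0.0056% to 23.6%). Gbp3 turned to -2.05 in MYC-OE against WT with the set term (edgeR adjusted p = 0.0389). The cause was not tested. Total counts moved the median of all genes in MYC-OE against WT to 0.76. Same-numbered libraries correlated at -0.599 to 0.683 in their deviations, above 0.1 in 11 of 18 pairs. Libraries of unlike number in different groups spanned -0.699 to 0.658. These values do not settle whether the numbers pair samples, and the main fit did not pair them. With the replicate block, 3 members were called in MYC-OE against WT (13.4% of all tested genes) and 2 in MYC-OE SETD2-KO against MYC-OE (0.0999%). Ifi44l in MYC-OE SETD2-KO against MYC-OE was called in 15 of 15 alternatives (6.87 to 8.03) and Gbp2b in 12 of 15. Few counts in MYC-OE limit the size of both changes.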
